A study of Mus musculus with 52 samples.

Results

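Heat shock proteins and the genes of the endoplasmic reticulum (ER) stress response were followed in cultured mouse dendritic cells exposed to prostaglandin E2 (PGE2), to melanoma-conditioned medium and to poly I:C. The set holds 33 genes chosen by name for their known roles, with earlier results of these data known, of 23136 lines in the count table. They are 11 cytosolic and mitochondrial heat shock genes, 16 ER genes and 6 genes of the integrated stress response. The table held 32 of them, and Ddit3 is not analysed here. Enough counts for a test were reached by 29 members at 4 h, 28 at 24 h and 25 between the times.

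Heat shock proteins are chaperones that bind unfolded proteins, and their genes are switched on by heat shock factor 1 through repeated heat shock elements in the promoter. The unfolded protein response of the ER is started by the sensors IRE1, PERK and ATF6, whose outputs XBP1, ATF4 and cleaved ATF6 raise ER chaperones and degradation factors. The integrated stress response runs through phosphorylation of eIF2alpha and the transcription factor ATF4, and PERK feeds into it. Type 1 conventional dendritic cells (cDC1), which take up dead cells and present their antigens to CD8+ T cells, are known to keep the IRE1 and XBP1 branch active at steady state.

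The cells were cDC1 grown from C57BL/6 bone marrow over 14 days under GM-CSF and FLT3 ligand, then sorted by CD103, a culture that every group shares. At 4 h there were 9 groups: untreated cells, PGE2 (100 ng/ml), medium of PGE2-producing BRAFV600E melanoma cells (control medium), medium of Ptgs1/Ptgs2-/- BRAFV600E melanoma cells (Ptgs-deficient medium), and PGE2 after 30 min with 5 uM of an antagonist of EP1 (SC-19220), EP2 (PF-04418948), EP3 (L-826,266), EP4 (L161,982) or EP2 and EP4 together. At 24 h there were 4 groups: untreated, PGE2, poly I:C (10 ug/ml, a ligand of the receptor TLR3, for 4 h) and PGE2 with the same poly I:C. The treatment labels do not say whether the 4 h of poly I:C fell within the 24 h or came after. The melanoma cells, not the cDC1, lacked Ptgs1 and Ptgs2, which encode the cyclooxygenases that start prostaglandin synthesis. The treatment label of the group titled EP2 and EP4 names SC-19220, the compound of the EP1 group, beside L161,982, so it is called here the group labelled EP2+EP4.

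Each group had 4 libraries, A to D, labelled as biological replicates without naming animals or cultures, so the p-values take in only the spread among these libraries, and that may be technical. The 52 libraries of 3' ends, counted by unique molecular identifiers, held 42666 to 438491 counts with a median of 295484. The shallowest were library A of the EP4 antagonist (42666) and library A of the untreated cells at 4 h (54107). All 12 of 12 cDC1 markers were in the table, and their summed level was 5051 to 11737 CPM (counts relative to the library total after TMM scaling) in every library. The 6 macrophage and monocyte markers summed to 410 to 2034 CPM (median 1074), the 5 plasmacytoid markers to 48.6 to 1232 CPM (median 101) and the 6 cDC2 markers to 4.56 to 227 CPM (median 47.7). In the macrophage and monocyte list Lyz2 (up to 1727 CPM in a library) and Csf1r (up to 396 CPM) were highest, and Mertk was at 0 in 12 of the 13 groups. The lymphocyte list (4 of 5 genes in the table) summed to at most 20.1 CPM, the granulocyte and mast cell list to at most 14.0 CPM and the melanoma list to at most 7.33 CPM, but the last 2 rest on S100a8 and S100a9 alone (2 of 6 genes, no mast cell gene) and on Pmel and Dct alone (2 of 4). Below, a gene rose or fell where edgeR's quasi-likelihood test gave a Benjamini-Hochberg adjusted p of at most 0.05 over all genes tested. Differences are on the log2 scale ± the standard error of the fit, and levels are CPM with the SD over 4 libraries. A bulk level cannot tell fewer cells expressing a gene from less RNA per cell.

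Promoter sequence is shown for the members that carried a known stress element, to let the sites through which these responses are known to act be read beside the values. The 250 bases upstream of the start were searched on both strands in RefSeq's table for GRCm38.p6, which matched 28 of the 33 members and not Hspa8, Hsp90aa1, Hsp90ab1, Manf or Hyou1. A match is a description of letters, and no match says only that these letters are not in this window. The ER stress element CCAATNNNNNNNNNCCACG, the site of ATF6 with NF-Y, was found in 0.113% of all 32851 windows and in those of Hspa5, Hsp90b1, Dnajc3, Pdia6 and Creld2. Its shorter form ATTGGNCCACG, in 0.0304% of windows, was found in that of Herpud1. Capitals mark the match, and in Creld2 and for the second match of Hsp90b1 it lies on the reverse strand. The Hspa5 stretch lies in an exon that the annotation gives to another Hspa5 start.

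Hspa5 (+ strand, chr2:34772020-34772048): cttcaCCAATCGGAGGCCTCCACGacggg
Hsp90b1 (- strand, chr10:86705528-86705661): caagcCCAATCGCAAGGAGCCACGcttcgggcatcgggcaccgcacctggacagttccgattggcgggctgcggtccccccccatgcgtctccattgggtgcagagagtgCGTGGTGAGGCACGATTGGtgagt
Dnajc3 (+ strand, chr14:118937822-118937850): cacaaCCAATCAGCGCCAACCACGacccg
Pdia6 (+ strand, chr12:17266486-17266514): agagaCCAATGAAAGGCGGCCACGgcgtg
Creld2 (+ strand, chr15:88819515-88819543): cttctCGTGGCGAGCCTCAATTGGtccac
Herpud1 (+ strand, chr8:94386372-94386392): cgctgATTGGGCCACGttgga

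For the integrated stress response the amino acid response element TGATGNAA, bound by ATF4 and its partners, was found in 3.45% of windows and in those of Asns, Chac1 and Herpud1. The Asns stretch lies in an annotated Asns exon, and the match in Chac1 lies on the reverse strand. The cAMP response element TGACGTCA was found in 1.55% of windows and in that of Ppp1r15a. PGE2 signals through cAMP at EP2 and EP4, which is why that stretch is shown. The unfolded protein response element TGACGTGG, in 0.563% of windows, was found in none of the 28.

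Asns (- strand, chr6:7693220-7693237): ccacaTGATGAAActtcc
Chac1 (+ strand, chr2:119351044-119351061): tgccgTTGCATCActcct
Ppp1r15a (- strand, chr7:45526269-45526285): tccggTGACGTCAgcac

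The full heat shock element GAANNTTCNNGAA was found in 0.466% of windows and in those of Hspd1 and Hspe1 alone among the members. These genes encode the mitochondrial chaperonin and its lid and stand head to head, so both windows hold the same bases, which lie in an annotated Hspd1 exon. Pairs of the element's units, GAANNTTC or TTCNNGAA, were looked up after the full element and are in 12.8% of windows and in those of 8 members. Hspa1a and Hspa1b, the inducible HSP70 genes, hold 1 such pair in the last 120 bases before the start, and these stretches are identical at 119 of 120 bases (99.2%). They are printed to show how alike this gene pair is.

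Hspe1 (+ strand, chr1:55088054-55088081): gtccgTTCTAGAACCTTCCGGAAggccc
Hspa1a (- strand, chr17:34972157-34972276): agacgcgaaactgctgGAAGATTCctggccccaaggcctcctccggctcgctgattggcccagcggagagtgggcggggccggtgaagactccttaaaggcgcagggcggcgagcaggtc
Hspa1b (- strand, chr17:34959239-34959358): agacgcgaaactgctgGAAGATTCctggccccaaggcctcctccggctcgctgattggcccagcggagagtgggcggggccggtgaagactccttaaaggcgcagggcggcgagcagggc

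PGE2 for 4 h lowered a few ER genes, Serp1 above all, and most members did not pass the test. Of 29 members tested 1 rose and 4 fell, beside 8.57% of all genes that passed the same test. The ER genes had a median difference of -0.21, the heat shock genes of -0.05 and the 3 tested integrated stress genes of 0.82, against -0.01 over all genes. With library totals alone as the scaling, the median of all genes in this comparison was -0.13. The cDC1 markers summed to 9573 to 10450 CPM with PGE2 and 8590.3 to 9218 CPM without, a shift without overlap. Plet1 had means of 5510.3 and 1050.0 CPM and Irf8 of 2540 and 4324 CPM. Plet1 and Flt3 had higher means with PGE2, and the other cDC1 markers had lower ones. The part of this shift in the results was not tested.

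Serp1, which stabilises newly made membrane proteins at the ER translocon, had the smallest adjusted p. It lies at chr3:58519817-58525892, minus strand, in GRCm38, and shares 72 exon bases with Eif2a on the opposite strand, whose reads cannot be told apart since the use of strand in counting is not given. In the untreated libraries A to D its level was 1538, 1773, 1702 and 1601 CPM, and under PGE2 it was 387, 397, 439 and 322 CPM. The groups were far apart and each was tight. The difference was -2.10 ± 0.22 (adjusted p = 3.12e-08), from 1654 ± 104 to 386 ± 48.3 CPM (SD, n = 4).

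Hspe1, the lid of the mitochondrial chaperonin, was the only heat shock gene called. Its level was 256, 214, 206 and 280.1 CPM in untreated libraries and 146, 179.5, 101 and 117 CPM under PGE2. No treated library reached an untreated one, and the difference was -0.82 ± 0.19 (adjusted p = 0.00101). Sdf2l1, a partner of ER chaperones, fell by 0.60 ± 0.15 on the log2 scale, with no overlap of the groups (adjusted p = 0.00179). Herpud1, which helps to bring ER proteins to degradation, showed -0.54 ± 0.18 (adjusted p = 0.0487) with overlapping groups. That call was lost without untreated B or D or PGE2 B, C or D (adjusted p = 0.0744 to 0.476) and was kept in 7 of 15 alternatives.

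Xbp1, the transcription factor whose mRNA is spliced by IRE1, moved the other way. The untreated libraries had 256, 459, 337 and 481 CPM and the PGE2 libraries 712, 516, 647 and 499.9 CPM, a narrow gap without overlap. The rise was 0.54 ± 0.14 (adjusted p = 0.00448), and it was lost without untreated C (adjusted p = 0.0699). Counts at the 3' end do not separate spliced from unspliced Xbp1. Hspa5 (BiP, the main ER chaperone) had 618, 724, 774 and 705 CPM untreated and 665, 611, 577 and 483 CPM with PGE2, a difference of -0.30 ± 0.13 that did not pass the test (adjusted p = 0.154) but did with library totals alone (-0.44, adjusted p = 0.0104). For Ppp1r15a (GADD34, which directs dephosphorylation of eIF2alpha) the levels were 15.1, 0, 20.0 and 13.2 CPM untreated and 42.4, 42.0, 28.9 and 27.8 CPM with PGE2. Those groups did not overlap, at 13 and 35 counts in all, and the difference of 1.53 ± 0.57 missed the threshold (adjusted p = 0.0767). Without untreated C it was 2.06 (adjusted p = 0.0482).

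Hspa1a and Hspa1b stayed low at 4 h. Hspa1a had 45.2, 30.2, 20.0 and 21.1 CPM untreated and 14.1, 42.0, 40.4 and 61.1 CPM with PGE2, overlapping ranges with a difference of 0.62 ± 0.43 (adjusted p = 0.482). Hspa1b, too low to be tested at 4 h, had 15.1, 3.35, 14.3 and 2.64 CPM untreated and 18.9, 0, 11.5 and 16.7 CPM with PGE2. The 2 annotated transcripts have 1716 stretches of 50 bases in common, 58.8% of those of Hspa1a and 62.3% of those of Hspa1b, but none in the last 400 bases of either. Reads from the shared stretches cannot be told apart.

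Of the other genes of these pathways, listed by role, 1 of 30 tested heat shock factors and co-chaperones, 1 of 39 ER sensors and folding factors and 1 of 16 genes of the eIF2alpha and ATF4 programme rose under PGE2 at 4 h, and none fell. The ER gene was Eif2ak3 (PERK), at 43.1 ± 12.1 CPM with PGE2 and 4.42 ± 3.01 CPM without (2.91 ± 0.58, adjusted p = 5.22e-05). Slc3a2, a subunit of amino acid transporters, rose by 0.76 ± 0.19 (adjusted p = 0.00167), and the ubiquitin gene Ubb by 0.41 ± 0.14 (adjusted p = 0.0375).

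**Figure D1:**
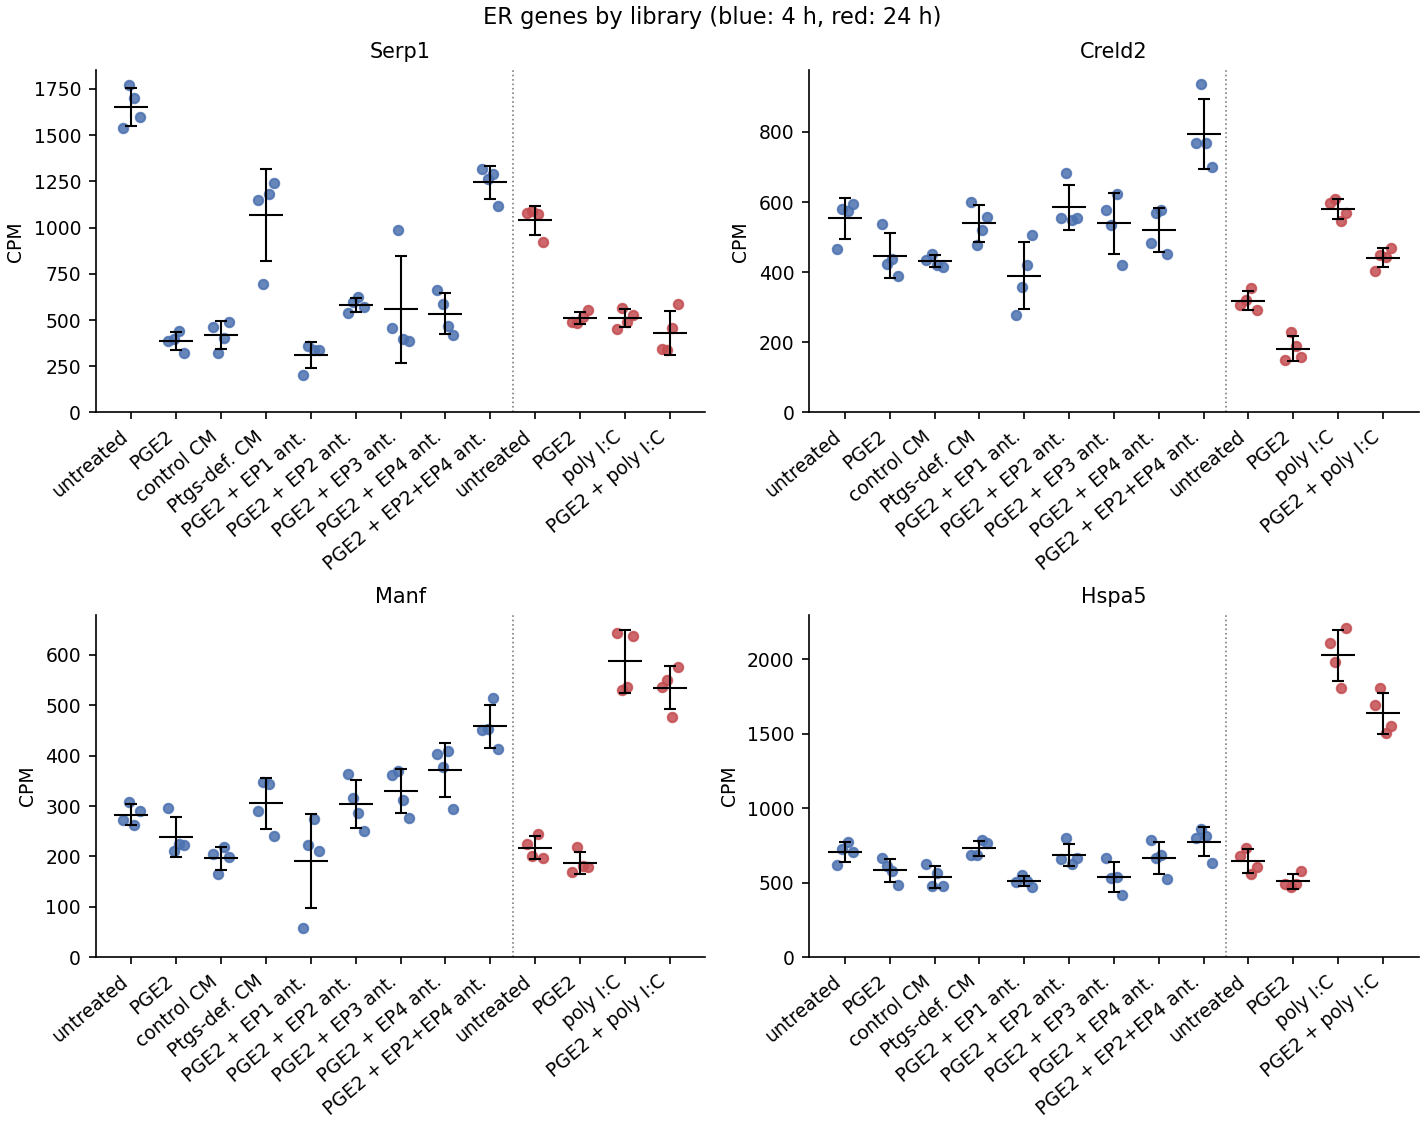
CPM of Serp1, Creld2, Manf and Hspa5 in each library (points) with the mean and SD (bars) for the 13 groups. Serp1 is near 1654 CPM in untreated cells at 4 h and near 386 CPM with PGE2, and the group labelled EP2+EP4 lies at 1115 to 1315 CPM.

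Serp1 and 3 other ER genes of 16 were lower in medium of melanoma cells that have the cyclooxygenase genes than in medium of cells that lack them. Of 29 members, 0 were higher and 4 were lower in control medium than in Ptgs-deficient medium, beside 3.95% of all genes. All 4 were ER genes and the ER median was -0.36, while Xbp1, Pdia4 and Edem1 had differences above 0 (0.04, 0.29 and 0.07) that did not pass. The media did not overlap in 9 of 16 ER genes, beside 7.92% of all genes tested. The heat shock median was -0.19 and that of the 3 integrated stress genes 0.39. The cDC1 markers summed to 10766 to 11737 CPM in control and 8832 to 9952 CPM in Ptgs-deficient medium, and to 8590.3 to 9218 CPM in untreated cells. Plet1 (means of 5732 and 1776 CPM), Itgae and Flt3 were higher in control than in Ptgs-deficient medium. The other cDC1 markers had lower means in control medium, Irf8 at 3278 and 4509 CPM and Batf3 at 76.9 and 168 CPM. The part of these differences in the results was not tested.

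Serp1 had 464, 321, 403 and 489 CPM in control medium and 1150.2, 696, 1183 and 1242 CPM in Ptgs-deficient medium. Every Ptgs-deficient library was above every control library, although library B was lower than the other 3. The difference was -1.34 ± 0.22 (adjusted p = 0.000131). Manf, a secreted ER protein that binds BiP, differed by -0.63 ± 0.17 (adjusted p = 0.00866). That call was lost without control medium B or Ptgs-deficient medium C (adjusted p = 0.0518 to 0.0728). Sdf2l1 differed by -0.55 ± 0.14 (adjusted p = 0.00929), a call lost without library D of either medium (adjusted p = 0.0716 to 0.11). Hspa5 had 628, 478, 568 and 480.4 CPM in control and 688, 687, 783 and 766 CPM in Ptgs-deficient medium, again without overlap. Its difference of -0.44 ± 0.13 (adjusted p = 0.0205) was lost without control medium B or D or Ptgs-deficient medium C or D (adjusted p = 0.0731 to 0.15). It was also lost without the filter on low counts.

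Xbp1 overlapped between the media, at 451, 467, 465 and 510.5 CPM in control and 414, 521, 512 and 404 CPM in Ptgs-deficient medium. Hspa1a was at 24.6, 40.2, 16.5 and 65.5 CPM and 20.0, 24.2, 12 and 16.4 CPM, a difference of 1.06 ± 0.43 that did not pass the test (adjusted p = 0.19). Hspa1b had 4.10, 0, 0 and 8.19 CPM in control and 2.85, 15.1, 7.99 and 0 CPM in Ptgs-deficient medium, only 4 and 8 counts in all. Among the other pathway genes only Nars, the asparaginyl-tRNA synthetase, was called, at -0.88 ± 0.26 (adjusted p = 0.0249), and 0 of 39 other ER genes were.

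Against untreated cells, control medium lowered 5 of 29 members and raised 0, beside 7.56% of all genes, and all 5 were ER genes (ER median -0.32). Serp1 fell by 1.99 ± 0.22 (adjusted p = 6.71e-08) and Sdf2l1 by 0.68 ± 0.15 (adjusted p = 0.000292) on the log2 scale. The remaining 3 were smaller: Hspa5 at -0.43 ± 0.13 (adjusted p = 0.0213), Manf at -0.54 ± 0.17 (adjusted p = 0.0306) and Creld2, a disulfide isomerase, at -0.40 ± 0.14 (adjusted p = 0.0473). These 3 calls depended on single libraries, and each was also lost without the filter on low counts. Hspa5 was lost without untreated B or C or control medium B or D (adjusted p = 0.0718 to 0.137), Manf without untreated B or D or control medium A, B or D (adjusted p = 0.057 to 0.153), and Creld2 without untreated B, C or D or any control medium library (adjusted p = 0.0777 to 0.146). Eif2ak3 again rose, by 2.25 ± 0.62 (adjusted p = 0.0085), with the folate enzyme gene Mthfd2 (0.64 ± 0.18, adjusted p = 0.0122) and the co-chaperone gene Dnajb6 (1.60 ± 0.47, adjusted p = 0.014). This comparison shares its untreated libraries with that of PGE2, and its control medium libraries with that of the media.

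In Ptgs-deficient medium 0 members passed against untreated cells in edgeR and in DESeq2, where 0.0869% of all genes passed in edgeR and 359 of 5754 had an unadjusted p under 0.05. The Serp1 difference was -0.65 ± 0.20, with a 95% interval of -1.04 to -0.26 (adjusted p = 0.361). Of the 29 members only Serp1 had groups that did not overlap, beside 3.6% of all genes tested, and it passed when only the groups compared were fitted (-0.66, adjusted p = 0.0129) or genes with low counts were kept (-0.62, adjusted p = 0.0107). The ER median was 0.01 and turned to -0.03 with library totals alone.

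Single antagonists of the PGE2 receptors moved no member past the threshold in edgeR or DESeq2. The share of all genes that passed in edgeR was 0% for EP1, 0.417% for EP2, 0.0695% for EP3 and 0.0348% for EP4, with 276, 538, 493 and 337 genes at an unadjusted p under 0.05. The 5 antagonist comparisons share the PGE2 libraries. Serp1 had 205, 361, 336 and 336 CPM with the EP1 antagonist, a difference from PGE2 alone of -0.28 (95% interval -0.76 to 0.21). With the EP2 antagonist it had 541, 597, 627 and 568 CPM, all above the PGE2 libraries, and 0.58 (95% interval 0.13 to 1.02, adjusted p = 0.39). Fitted with the PGE2 group alone, that difference passed (0.56, adjusted p = 0.000666). Otherwise neither difference passed over all genes, which does not show that Serp1 was at the level of PGE2 alone.

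With the EP3 antagonist Serp1 had 457, 989, 396 and 386 CPM, library B far above the rest, and a difference of 0.50 (95% interval 0.05 to 0.94). With the EP4 antagonist the levels were 665, 586, 469.8 and 419 CPM and the difference 0.40 (95% interval -0.08 to 0.88). Hspa5 had 505, 551, 510.0 and 469 CPM with the EP1 antagonist and 656, 797, 627 and 662 CPM with the EP2 antagonist. It had 663, 532, 539.7 and 418 CPM with the EP3 antagonist and 786, 663, 685 and 525 CPM with the EP4 antagonist. These ranges all meet that of PGE2 alone. Xbp1 had 556, 499.8, 534 and 608 CPM with the EP1 antagonist and 501, 452, 499 and 619 CPM with the EP2 antagonist. It had 569.8, 480.1, 645 and 526 CPM with the EP3 antagonist and 322, 685, 476 and 399.9 CPM with the EP4 antagonist, again ranges that meet that of PGE2 alone. Hspa1a had 65.8, 41.9, 55.5 and 64.6 CPM with the EP1 antagonist, 28.8, 36.8, 36.1 and 60.4 CPM with the EP2 antagonist and 39.5, 22.7, 45.6 and 39.4 CPM with the EP3 antagonist. With the EP4 antagonist it had 201, 25.7, 35.9 and 33.7 CPM, where library A, the shallowest of the series, is far above the other 3. Hspa1b, not tested at 4 h, had 14.6, 3.22, 13.9 and 17.0 CPM with the EP1 antagonist, 7.21, 5.66, 9.85 and 14.5 CPM with the EP2 antagonist and 5.64, 0, 10.5 and 10.5 CPM with the EP3 antagonist. With the EP4 antagonist it had 60.4, 11.0, 12 and 14.5 CPM, again highest in library A. Among the larger differences that did not pass were Manf with the EP4 antagonist (0.64 ± 0.17, adjusted p = 0.23) and Creld2 with the EP2 antagonist (0.39 ± 0.13, adjusted p = 0.246).

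The group labelled EP2+EP4 differed from PGE2 alone in 9 of 29 members, all higher, beside 9.52% of all genes. They were 7 ER genes, 1 heat shock gene and 1 integrated stress gene. The ER median was 0.44, the heat shock median 0.01 (-0.01 with the RLE scaling of DESeq2) and the median of the 3 integrated stress genes -0.83. Cell markers moved in the same comparison without overlap. The cDC1 list summed to 7422 to 7818 CPM with the antagonists and 9573 to 10450 CPM with PGE2 alone, with Plet1 means of 1281 and 5510.3 CPM. Plet1, Itgae and Flt3 had lower means with the antagonists than with PGE2 alone. The other cDC1 markers had higher means with the antagonists, Irf8 at 3670 and 2540 CPM and Xcr1 at 176 and 116 CPM. The macrophage and monocyte list was at 1136 to 1544 and 822 to 1043 CPM, with Adgre1 and Mertk at 0 in both groups and Lyz2 means of 1058 and 756 CPM. The part of these shifts in the results was not tested.

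Creld2 had the smallest adjusted p, with 537, 424, 439 and 389 CPM under PGE2 alone and 768, 936, 768 and 701 CPM with the antagonists. The groups did not overlap, and the rise was 0.82 ± 0.13 (adjusted p = 1.72e-07). Manf rose by 0.95 ± 0.16 (adjusted p = 5.85e-07) and lay at 414 to 515 CPM with the antagonists and 210.1 to 297 CPM without. Serp1 had 1315, 1262, 1288 and 1115 CPM, well above PGE2 alone, and rose by 1.67 ± 0.22 (adjusted p = 1.6e-06). Its mean of 1245 CPM stood below that of untreated cells, 1654 CPM, and the highest antagonist library was below the lowest untreated one, a comparison that was not tested. Sdf2l1 rose by 0.64 ± 0.14 (adjusted p = 0.000371).

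Asns, the asparagine synthetase that ATF4 controls, showed the largest log2 rise of the 9 in this comparison. In the fit of untreated and PGE2 libraries alone Asns did not reach the filter. Of the groups compared here, Asns was thus high enough only in the group labelled EP2+EP4, and that it was tested may have depended on its rise. It had 4.71, 15.3, 20.2 and 16.7 CPM with PGE2 alone and 50.8, 54.7, 53.9 and 56.6 CPM with the antagonists, against 15.1, 23.5, 25.7 and 23.8 CPM in untreated cells. The antagonist libraries lay above both of the other groups, and the rise over PGE2 was 1.83 ± 0.42 (adjusted p = 0.000612). Hspe1 had 203, 225, 186 and 195 CPM with the antagonists and rose by 0.58 ± 0.19 (adjusted p = 0.0272).

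The smaller rises were Herpud1 at 0.59 ± 0.17 (adjusted p = 0.0152), Hspa5 at 0.40 ± 0.13 (adjusted p = 0.021) and Dnajc3 (p58IPK, an ER co-chaperone) at 0.48 ± 0.16 (adjusted p = 0.0424). Hspa5 had 801, 859, 811 and 633 CPM with the antagonists. These calls and that of Hspe1 depended on single libraries, and some also on the settings. Dnajc3 was lost with DESeq2, with RLE scaling and without the filter on low counts, and kept in 6 of 15 alternatives. Hspe1 was lost with DESeq2 and without the filter (kept in 9 of 15), and Hspa5 without the filter (kept in 8 of 15). Herpud1 was lost without PGE2 D or antagonist B or C (adjusted p = 0.0541 to 0.162), and Hspe1 without PGE2 C or D or antagonist A or B (adjusted p = 0.0613 to 0.234). Hspa5 was lost without PGE2 B, C or D or antagonist A, B or C (adjusted p = 0.0559 to 0.151), as was Dnajc3 (adjusted p = 0.0595 to 0.225). Ppp1r15a had 6.10, 8.64, 18.9 and 20.4 CPM, lower than every PGE2 library, with a difference of -1.36 ± 0.51 that missed the threshold (adjusted p = 0.0701). Xbp1 had 425, 507, 577 and 450.2 CPM and Hspa1a 36.6, 46.1, 56.6 and 76.9 CPM, both overlapping PGE2 alone. Hspa1b had 22.4, 5.76, 13.5 and 6.79 CPM.

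Of the other ER genes, 6 of 39 rose and 1 fell in this comparison, beside 1 rise among 30 heat shock cofactors and 2 rises and 1 fall among 16 genes of the ATF4 programme. The named ones handle proteins entering or leaving the ER: Spcs2 of the signal peptidase (0.64 ± 0.13, adjusted p = 9.74e-05), Ssr2 of the translocon (0.74 ± 0.17, adjusted p = 0.000558) and the cargo receptor gene Lman1 (1.16 ± 0.28, adjusted p = 0.00117).

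**Figure D2:**
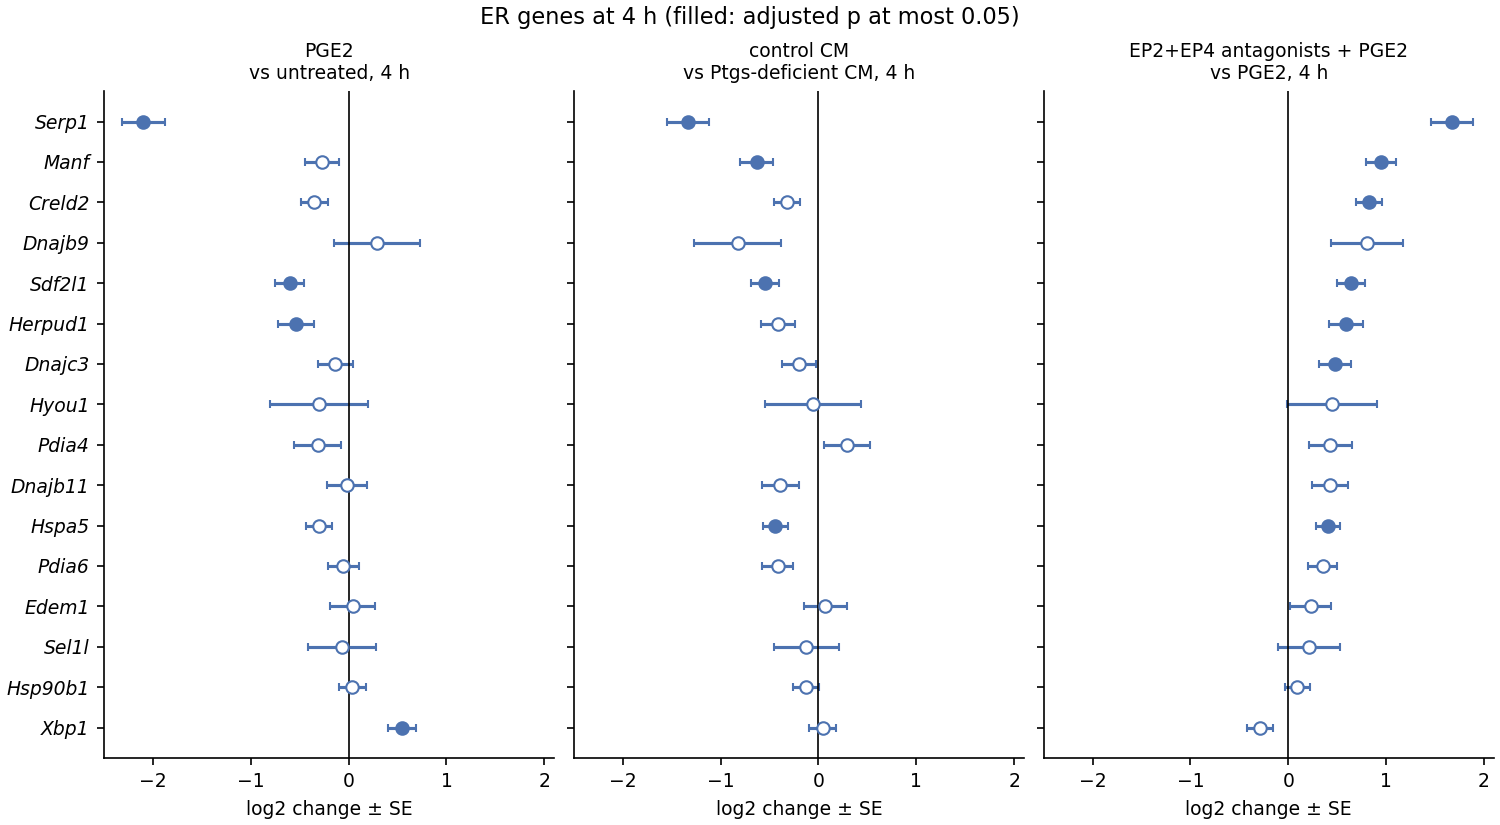
Log2 difference ± SE of the 16 ER genes at 4 h for PGE2 against untreated, control against Ptgs-deficient medium, and the group labelled EP2+EP4 against PGE2, with filled points for an adjusted p of at most 0.05. Serp1 stands apart on both sides, at -2.10, -1.34 and 1.67, and most other points lie within 1 log2 unit of 0.

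After 24 h of PGE2 the calls were again ER genes that fell: 5 of 28 members, with 0 rises, beside 7.97% of all genes. Marker lists moved too, without overlap. The cDC1 list was at 7185 to 8220.3 CPM with PGE2 and 8455 to 9011 CPM untreated, and the macrophage and monocyte list at 1665 to 2034 and 1065 to 1524 CPM, with Mertk at 0 in both groups. The cDC2 list was at 160.96 to 227 CPM with PGE2 and 68.9 to 113 CPM untreated, with Clec10a at 0 in both groups. Over all libraries of the series, Lyz2 (up to 1727 CPM) and Csf1r (up to 396 CPM) were highest in the macrophage and monocyte list. Cd209a (up to 108 CPM) and Cd7 (up to 67.4 CPM) were highest in the cDC2 list. The part of these marker shifts in the results was not tested. The ER median was -0.18, the heat shock median -0.01 and that of the 2 integrated stress genes 0.54, against 0.03 over all genes. Serp1 had 1077, 1088, 1074 and 922 CPM untreated and 488, 483, 518 and 555 CPM with PGE2. There was no overlap, and the difference was -1.0 ± 0.11 (adjusted p = 1e-13). Creld2 went from 306, 321, 355 and 292 CPM to 149.7, 230.3, 189.9 and 159 CPM, also without overlap, a difference of -0.76 ± 0.15 (adjusted p = 4.71e-05).

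Hsp90b1 (GRP94, the ER form of HSP90), Sdf2l1 and Hspa5 fell less and by calls that depended on single libraries. Each was also lost without the filter on low counts, and Sdf2l1 and Hspa5 with DESeq2. Hsp90b1 showed -0.42 ± 0.13 (adjusted p = 0.0228) and was lost without untreated A or C or PGE2 B or C (adjusted p = 0.0509 to 0.146). Sdf2l1 showed -0.44 ± 0.14 (adjusted p = 0.0355) and was lost without untreated A or C or PGE2 A, B or C (adjusted p = 0.0909 to 0.152). Hspa5 had 682, 733, 555 and 607 CPM untreated and 494, 472, 490.0 and 579 CPM with PGE2, with a difference of -0.32 ± 0.11 (adjusted p = 0.0433). Its groups overlapped, and the call was lost without untreated A or B or PGE2 A, B or C (adjusted p = 0.0967 to 0.21). Xbp1 had 365, 321, 372 and 397 CPM untreated and 410.4, 472, 379.8 and 429.6 CPM with PGE2, a difference of 0.25 ± 0.13 (adjusted p = 0.288). Beside the members, Pdia3, an ER disulfide isomerase, fell by 0.36 ± 0.09 (adjusted p = 0.00285), while the ATF4 targets Ddit4 (2.55 ± 0.58, adjusted p = 0.000701) and Slc3a2 (0.68 ± 0.18, adjusted p = 0.00478) rose. Those 3 were the only calls among 30 heat shock cofactors, 36 ER genes and 19 genes of the ATF4 programme.

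The PGE2 effect itself differed between the times for 2 of 25 members, beside 4.35% of all genes. For Serp1 the effect at 24 h minus that at 4 h was 1.08 ± 0.16 (adjusted p = 5.15e-08), a smaller fall at 24 h. For Hspe1 it was 0.86 ± 0.23 (adjusted p = 0.0123), as its levels at 24 h, 368, 307, 299 and 259 CPM untreated and 344, 280.3, 325 and 309 CPM with PGE2, overlapped. The Hspe1 call was lost without untreated D or PGE2 C of 4 h (adjusted p = 0.0863 to 0.0993), and also without the filter on low counts. In the other lists Slc7a5, an amino acid transporter gene, was the only call (2.31 ± 0.72, adjusted p = 0.0425).

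Untreated cells also differed between 24 h and 4 h, in 6 of 25 members (2 higher, 4 lower at 24 h) beside 4.33% of all genes. Time and any batch of library making cannot be told apart. Serp1 was lower at 24 h by 0.69 ± 0.10 (adjusted p = 3.18e-08) and Creld2 by 0.85 ± 0.13 (adjusted p = 1.16e-07). Hspa8, the constitutive HSC70, went from 332, 466, 437 and 478 CPM to 658, 639.6, 690.4 and 627 CPM, without overlap, a rise of 0.54 ± 0.12 (adjusted p = 0.000987). Edem1, which passes misfolded glycoproteins to degradation (-0.83 ± 0.24, adjusted p = 0.0253), Pdia6, a disulfide isomerase (-0.50 ± 0.15, adjusted p = 0.0333), and Hspd1, the mitochondrial chaperonin (0.64 ± 0.20, adjusted p = 0.0472), were each called less firmly. Edem1 was lost without 4 h library B or 24 h library A or B (adjusted p = 0.0882 to 0.19), Pdia6 without 4 h library B, C or D or 24 h library C or D (adjusted p = 0.0572 to 0.164) and Hspd1 without 4 h library C or D or 24 h library B, C or D (adjusted p = 0.0543 to 0.4). Each was also lost with DESeq2 and without the filter on low counts, and Hspd1 with library totals alone. Library totals alone gave 1 higher and 4 lower. In the other lists 5 of 36 ER genes fell, with Spcs2 (-0.75 ± 0.13, adjusted p = 2.93e-06) and Pdia3 (-0.45 ± 0.10, adjusted p = 0.000615) first, and of 29 heat shock cofactors 1 rose, Hsbp1 (0.87 ± 0.21, adjusted p = 0.00369), and 1 fell.

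Poly I:C changed most of the set. Of 28 members 17 rose and 5 fell, but 65% of all genes passed the same test, so the share of members is read beside that. Of 11 heat shock genes 8 rose and 2 fell (median 1.14), and of 15 ER genes 7 rose and 3 fell (median 0.40). Both tested integrated stress genes rose (median 3.03). Ppp1r15a, Asns, Bag3 and Hspa1b did not reach the filter in the fit of untreated and PGE2 libraries of both times. They entered the 24 h fit through the poly I:C groups, where they were high. Hspa1a reached the filter with the 4 h libraries, but at 24 h it had only 0 to 19.7 CPM untreated and 2.77 to 12.3 CPM with PGE2. It too was tested at 24 h through the poly I:C groups. That all these genes were tested thus depended on their rise, and the integrated stress median rests on Ppp1r15a and Asns alone. Dnajb9, with means of 27.6 and 27.9 CPM in untreated and PGE2 libraries at 24 h, may also have been tested through the poly I:C groups. The median over all genes was -0.10 with TMM scaling, -0.21 with RLE and -0.87 with library totals alone. With library totals 20 members passed, 10 higher and 10 lower, and the ER median was -0.37. Directions below are therefore given on the TMM scale, and those that turn with library totals are named.

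The inducible HSP70 genes had the largest differences of the set. Hspa1a, at chr17:34969190-34972156, minus strand, had 0, 14.1, 11.3 and 19.7 CPM untreated and 1521, 1619.8, 1539.9 and 1892 CPM after poly I:C. The groups hardly share a scale, with 15 counts in all against 1288, and the rise was 7.08 ± 0.20 (adjusted p = 4.03e-81). Relative to the median of all genes it was 7.18 with TMM and 7.19 with library totals. Hspa1b, at chr17:34956436-34959238, minus strand, had 0, 5.64, 0 and 0 CPM untreated and 406, 288, 466 and 356 CPM after poly I:C. Its 2 untreated counts against 297 gave a depth-adjusted ratio of 264 (95% counting interval 72.5 to 2193), and the fitted difference of 7.54 ± 0.38 (adjusted p = 1.01e-45) depends on the prior count. Hspa1a shares 564 exon bases with Gm20481 on the opposite strand.

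The HSP70 partners rose with them. Dnajb1 (HSP40) rose by 2.92 ± 0.19 (adjusted p = 6.39e-33), from 54.4 ± 14.2 to 449.7 ± 60.3 CPM, and Dnaja1, another J-domain partner whose gene shares 608 exon bases with Smu1 on the opposite strand, by 2.58 ± 0.25 (adjusted p = 2.76e-19). Bag3, a nucleotide exchange factor that links HSP70 to autophagy, rose by 1.81 ± 0.38 (adjusted p = 1.12e-05). Hsp90ab1, the constitutive HSP90, rose by 0.60 ± 0.09 (adjusted p = 1.91e-09) on the TMM scale but was at -0.17 with library totals alone. The differences of Hspa8 (0.34 ± 0.11) and of the inducible HSP90 gene Hsp90aa1 (1.14 ± 0.34) also depended on the scaling: Hspa8 was at -0.44 with library totals, and Hsp90aa1 kept its sign there with an adjusted p of 0.326. Hsph1 (HSP110), at 0.43 ± 0.45, did not pass (adjusted p = 0.409).

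The mitochondrial chaperonin went down. Hspd1 had 153, 192, 155 and 197 CPM untreated and 92.9, 95.9, 105 and 45.6 CPM after poly I:C, with no overlap, a difference of -1.16 ± 0.23 (adjusted p = 3.28e-06). Hspe1 had 215, 226, 128 and 209.8 CPM after poly I:C, each below every untreated library, and fell by 0.79 ± 0.17 (adjusted p = 2.02e-05). Both also fell with library totals alone. They share 112 exon bases on opposite strands, so part of their reads may not be told apart.

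The ER genes split. Hspa5 had 2108, 1981, 1806 and 2207 CPM after poly I:C against 555 to 733 CPM untreated, and rose by 1.54 ± 0.10 (adjusted p = 1.67e-33). Edem1 rose by 2.82 ± 0.19 (adjusted p = 2.93e-32), with 51.0 to 87.4 CPM untreated and 452 to 594 CPM after poly I:C. Manf rose by 1.32 ± 0.14 (adjusted p = 2.37e-16), with 197 to 245 CPM untreated and 531 to 644 CPM after poly I:C. None of these 3 overlapped between the groups, and all 3 also rose with library totals alone.

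Serp1 fell, with 453, 564, 489.5 and 529 CPM after poly I:C against 922 to 1088 CPM untreated (-1.14 ± 0.12, adjusted p = 4.66e-17). Sdf2l1 fell by 0.90 ± 0.16 (adjusted p = 2.46e-07) and Xbp1, at 279, 198, 252 and 259.9 CPM, by 0.66 ± 0.15 (adjusted p = 6.42e-05). The transcription factor gene and the chaperone gene Hspa5 thus moved in opposite directions. Creld2 (0.75 ± 0.13, adjusted p = 3.44e-07), Pdia6 (0.55 ± 0.16) and Herpud1 (0.50 ± 0.15) rose on the TMM scale but were at -0.027, -0.22 and -0.28 with library totals alone. Hsp90b1, Dnajb11, Dnajc3, Pdia4 and Sel1l did not pass, with differences of 0.40 or less. The first 4 of them passed as lower with library totals alone (-0.64, -0.52, -0.62 and -0.66). Dnajb9 (ERdj4), at 0.94 ± 0.38, was lost without untreated A, C or D or poly I:C C or D (adjusted p = 0.0525 to 0.0857). It was also lost with DESeq2, with library totals alone and without the filter on low counts, and kept in 6 of 14 alternatives.

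Ppp1r15a led the integrated stress genes. It had 2.69, 11.3, 25.4 and 16.4 CPM untreated and 308, 373, 252 and 342 CPM after poly I:C, with no library in between, a rise of 4.38 ± 0.28 (adjusted p = 9.94e-35). Asns rose by 1.69 ± 0.43 (adjusted p = 0.000281). Chac1, an ATF4 and CHOP target that degrades glutathione, was too low for the filter. It stood at 8.06, 0, 11.3 and 3.28 CPM untreated, 29.0, 16.9, 28.5 and 22.8 CPM with poly I:C and 39.8, 26.2, 88.8 and 112 CPM with PGE2 and poly I:C, so that both poly I:C groups lay above every untreated library. Without the filter on low counts it passed as higher after poly I:C (1.90, adjusted p = 0.0159). Trib3, another ATF4 target, had mean levels of 1.38, 13.3 and 15.3 CPM in the same groups. A count of 0 over the 4 libraries of these groups allows up to 2.16, 3.85 and 3.49 CPM, so the untreated mean lay below that limit. Trib3 too passed as higher after poly I:C without the filter (2.83, adjusted p = 0.0180).

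Among the other pathway genes 14 of 30 heat shock factors and co-chaperones rose and 9 fell, 6 of 36 ER genes rose and 9 fell, and 12 of 19 genes of the ATF4 programme rose and 4 fell. Their median differences were 0.48, -0.22 and 1.10. The most firmly called were Cct3 of the cytosolic chaperonin (2.68 ± 0.11, adjusted p = 4.86e-60) and the J-domain gene Dnaja2 (3.39 ± 0.14, adjusted p = 3.38e-58).

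The libraries with poly I:C differed in more than these genes. Genes with at least 1 count numbered 8852 to 10100 in them and 10071 to 11363 in the other 24 h libraries. The summed cDC1 markers were 5051 to 7280 CPM with poly I:C and 7185 to 9011 CPM without, the macrophage and monocyte list 410 to 649 and 1065 to 2034 CPM, and the cDC2 list 4.56 to 36.1 and 68.9 to 227 CPM. The plasmacytoid list was 627 to 1232 CPM with poly I:C and 113 to 171 CPM without. Within it Bst2 had means of 97.2 CPM untreated and 607 CPM after poly I:C, and Siglech, the defining receptor, 10.7 and 1.14 CPM. The part of these differences in the results was not tested.

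**Figure D3:**
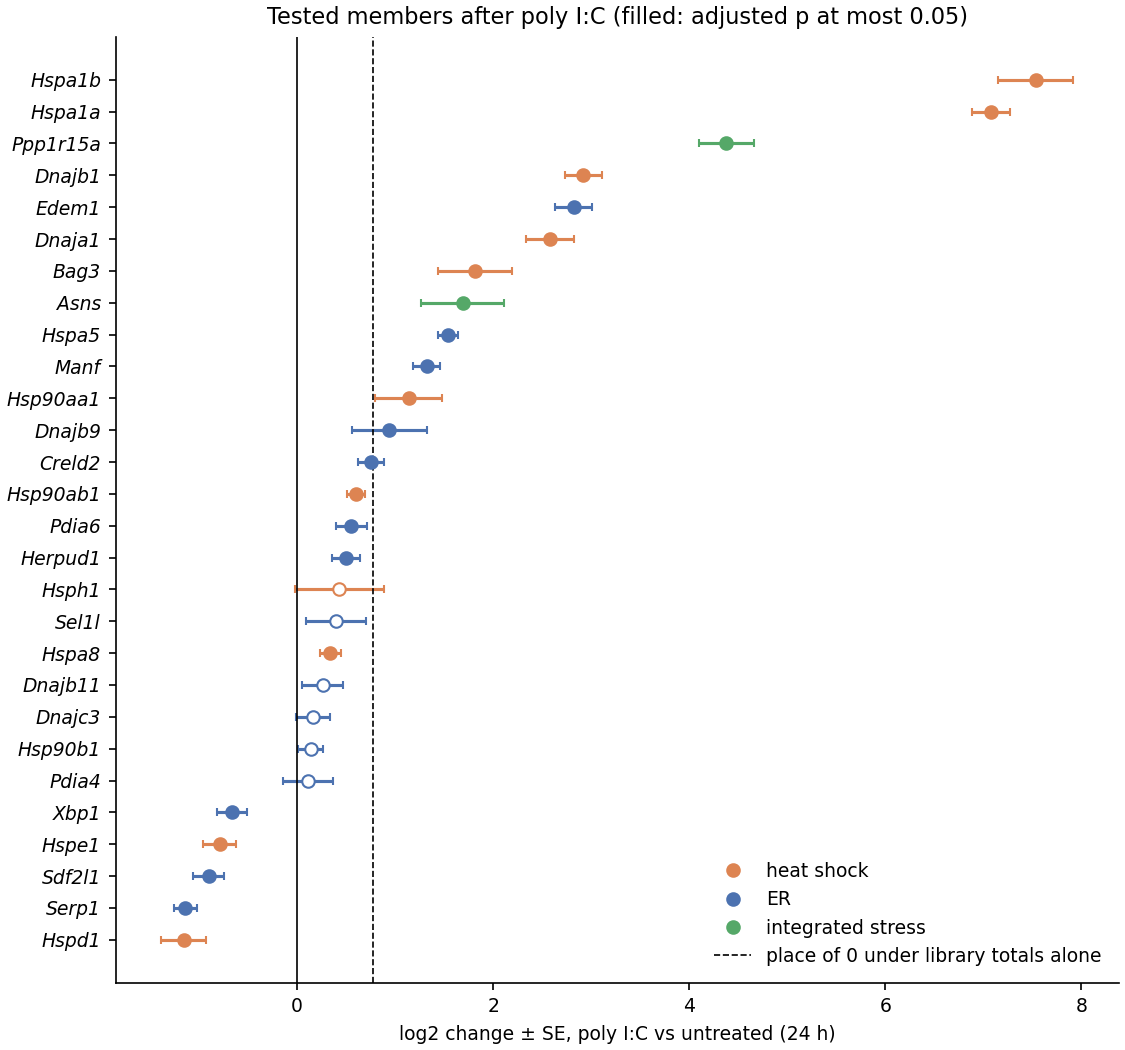
Log2 difference ± SE of the 28 tested members after poly I:C, ordered by difference and coloured by class. Filled points have an adjusted p of at most 0.05, and a dashed line marks where 0 would lie with library totals alone as the scaling. Hspa1a and Hspa1b stand at 7.08 and 7.54, Ppp1r15a at 4.38, and Hspd1 and Serp1 are the lowest at -1.16 and -1.14.

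PGE2 before poly I:C raised 4 of the 11 heat shock genes above poly I:C alone, Hspa8, Hspa1a, Hspa1b and Hsp90ab1, while the other 7 did not pass. Of all 28 members 4 were higher and 2 lower, beside 10.7% of all genes. The 4 were heat shock genes (median of 11 heat shock genes 0.33) and the 2 were ER genes (median of 15 ER genes -0.08). Hsp90aa1 (-0.26), Bag3 (0.04), Dnajb1 (0.22) and Dnaja1 (0.25) were among those that did not pass. Markers also moved between these 2 groups without overlap. The cDC1 list was at 6339 to 7280.2 CPM with PGE2 and poly I:C and 5051 to 5964 CPM with poly I:C, the plasmacytoid list at 881 to 1232 and 627 to 825 CPM, and the cDC2 list at 26.2 to 36.1 and 4.56 to 14.3 CPM. Their part in the results was not tested.

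Hspa8 had 801, 818, 979 and 962 CPM with poly I:C and 1438, 1243, 1182 and 1362 CPM with PGE2 and poly I:C. Every library with PGE2 was above the others, and the rise was 0.55 ± 0.11 (adjusted p = 2.34e-05). Without poly I:C it had 593, 558, 502 and 589 CPM with PGE2 and 627 to 690.4 CPM untreated. The interaction, which tests whether the poly I:C effect differs with PGE2, was 0.74 ± 0.15 for Hspa8 (adjusted p = 0.000321).

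Hspa1a had 2612, 2045, 2009 and 2079 CPM with PGE2 and poly I:C, where library A was the highest. The rise over poly I:C alone was 0.41 ± 0.10 (adjusted p = 0.00157), and it was lost without that library A (adjusted p = 0.0618). Hspa1b, with 587, 593, 611 and 517 CPM, rose by 0.60 ± 0.16 (adjusted p = 0.00312) and kept its call in 14 of 14 alternatives. Hsp90ab1 rose by 0.33 ± 0.09 (adjusted p = 0.00587), a call lost without poly I:C B (adjusted p = 0.0502). PGE2 without poly I:C gave 2.77, 8.33, 12.3 and 9.65 CPM of Hspa1a and 11.1, 0, 3.06 and 14.5 CPM of Hspa1b, near the limit that a count of 0 allows. The interaction of Hspa1a was 0.80 ± 0.56 and did not pass (adjusted p = 0.601).

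The 2 ER genes went down. Hspa5 had 1692, 1805, 1504 and 1551 CPM with PGE2 and poly I:C and fell by 0.30 ± 0.10 (adjusted p = 0.023), a call lost without poly I:C B or D or the combined C or D (adjusted p = 0.0547 to 0.0841). The Hspa5 call was also lost without the filter on low counts. Creld2 fell by 0.39 ± 0.14 (adjusted p = 0.0476), with 547 to 609.6 CPM in poly I:C and 403 to 469 CPM in the combined group. That call was lost when any 1 of the 8 libraries was left out (adjusted p = 0.0534 to 0.14) and kept in 3 of 14 alternatives. Xbp1 had 239, 214, 261 and 301 CPM and did not differ from poly I:C alone beyond its spread. Among the other lists P4hb, the main ER disulfide isomerase, fell by 0.92 ± 0.13 (adjusted p = 1.55e-09) and Atf3, a stress transcription factor, by 1.09 ± 0.22 (adjusted p = 4.33e-05), while Ddit4 rose by 2.30 ± 0.59 (adjusted p = 0.00262). In all, 0 of 30 heat shock cofactors rose and 2 fell, 0 of 36 ER genes rose and 3 fell, and 1 of 19 genes of the ATF4 programme rose and 2 fell.

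The interaction passed for 2 of 28 members, beside 3.28% of all genes. Hspa8 was given above. For Serp1, with 343, 336, 455 and 585 CPM in the combined group, it was 0.76 ± 0.18 (adjusted p = 0.00224), where PGE2 lowered Serp1 in resting cells and the combined group overlapped poly I:C alone (without its library D the difference from poly I:C alone was -0.45, adjusted p = 0.0363). It was lost without library D of the combined group (adjusted p = 0.0584). Hsp90b1 lay just outside the threshold (0.58 ± 0.18, adjusted p = 0.0521) and passed without untreated B, PGE2 D, poly I:C C or the combined A or D (adjusted p = 0.0180 to 0.0421), with the replicate block (adjusted p = 0.0380), with RLE scaling (adjusted p = 0.0424) and with library totals alone (adjusted p = 0.0492). Of the other pathway genes P4hb passed (-0.85 ± 0.17, adjusted p = 0.000219).

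**Figure D4:**
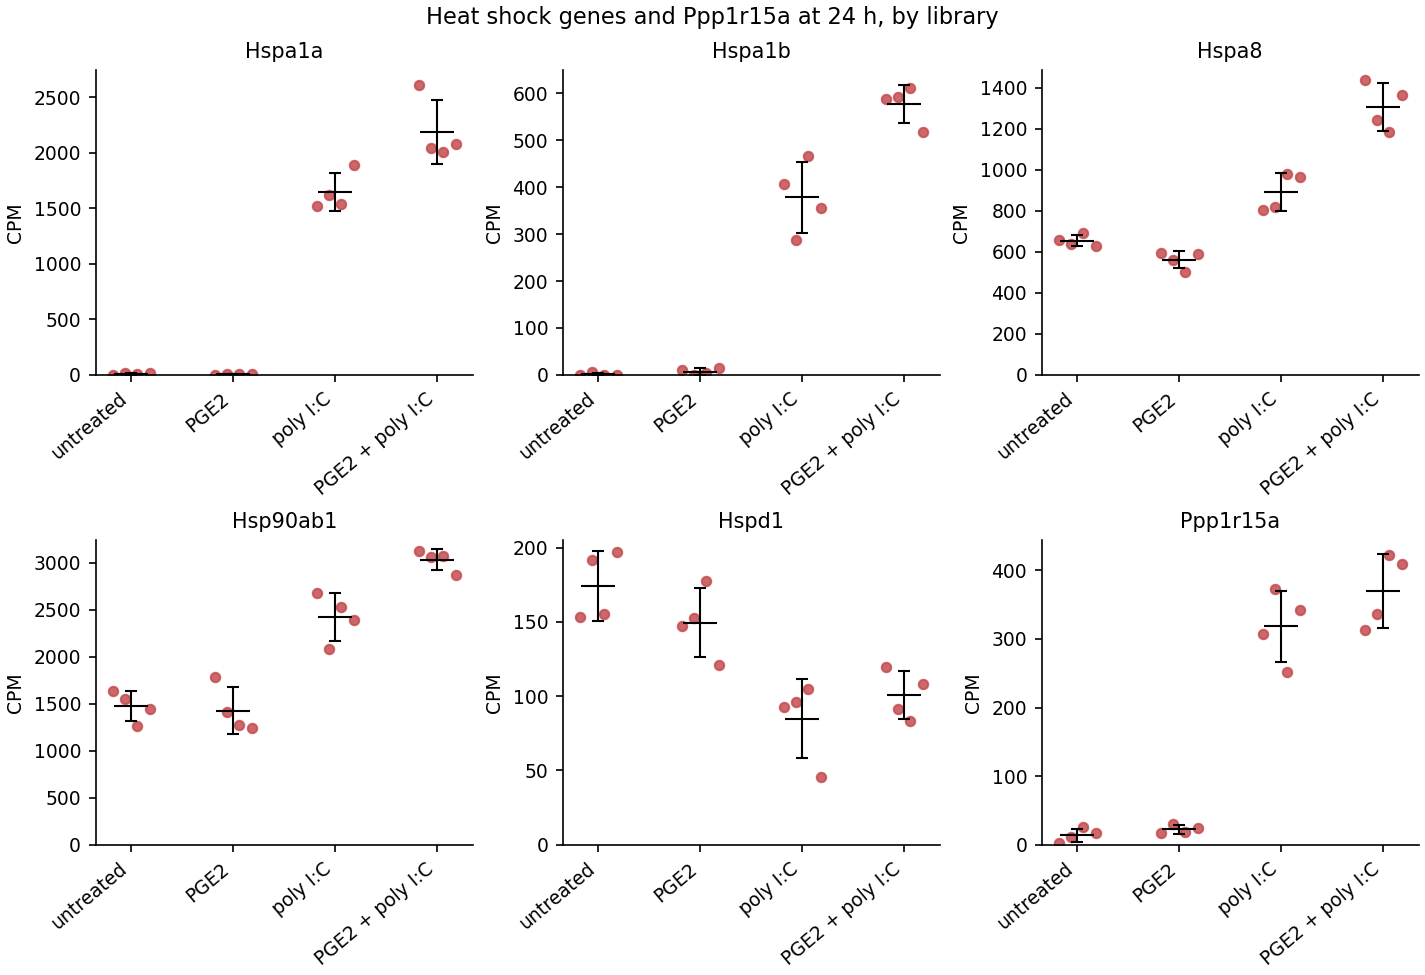
CPM of Hspa1a, Hspa1b, Hspa8, Hsp90ab1, Hspd1 and Ppp1r15a in each 24 h library (points) with the mean and SD for the 4 groups. Hspa1a is below 20 CPM without poly I:C and at 1521 to 2612 CPM with it, and Hspa8 is highest in the group with PGE2 and poly I:C, at 1182 to 1438 CPM.

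Of the members tested, Hsph1, Dnajb11, Pdia4, Sel1l, Hyou1 and Sesn2 passed in none of the 15 comparisons. Their group means lay at 14.7 to 65.5 CPM for Hsph1, 127 to 236 CPM for the ER co-chaperone gene Dnajb11, 74.4 to 152 CPM for the disulfide isomerase gene Pdia4 and 44.3 to 114 CPM for Sel1l, a subunit of the ER degradation complex. Hyou1 (ORP150) had group means of 8.94 to 37.6 CPM and Sesn2 (sestrin 2) of 17.5 to 44.1 CPM, low enough for the filter to leave both out at 24 h.

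The classes can also be read as levels over the 13 groups. The class level is the mean log2 CPM of the members that were tested in both fits, 10 heat shock, 15 ER and 2 integrated stress genes, and is given without a test. The heat shock class was at 6.54 ± 0.09 (SD, n = 4) in untreated cells and 6.44 ± 0.19 with PGE2 at 4 h. At 24 h it was 6.57 ± 0.11 untreated, 6.49 ± 0.20 with PGE2, 8.03 ± 0.16 with poly I:C and 8.36 ± 0.08 with both. Its means in the other 7 groups at 4 h were 6.30 to 6.55, and both poly I:C groups lay above the other 11.

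The ER class had its lowest 4 h means with the EP1 antagonist and PGE2 (7.68 ± 0.19) and in control medium (7.71 ± 0.05). It was 7.99 ± 0.23 in untreated cells, 7.80 ± 0.19 with PGE2 and 8.06 ± 0.11 in Ptgs-deficient medium. The group labelled EP2+EP4 had the highest 4 h mean, 8.33 ± 0.09. At 24 h it was 7.74 ± 0.07 untreated, 7.49 ± 0.07 with PGE2, 8.26 ± 0.11 with poly I:C and 8.21 ± 0.08 with both. These levels are on the TMM scale, where the median ER difference after poly I:C was 0.40. With library totals alone that median was -0.37. The untreated and PGE2 ranges at 24 h did not overlap, and the 2 poly I:C groups differed by less than their spread.

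**Figure D5:**
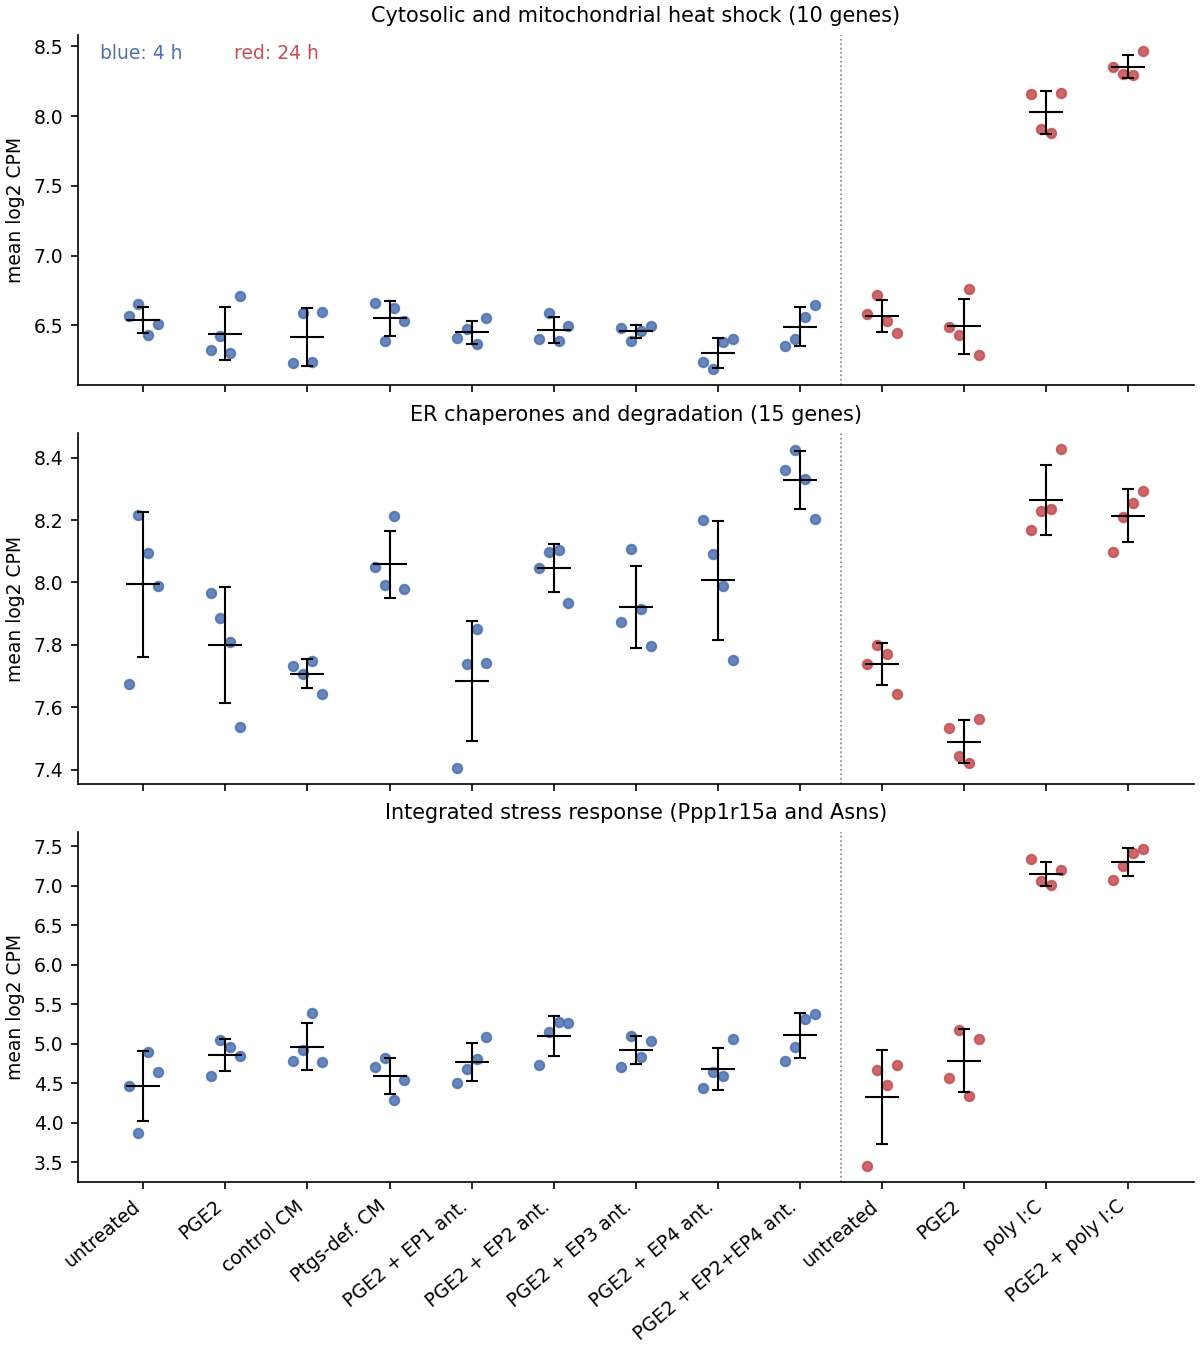
Mean log2 CPM on the TMM scale per library (points) over the heat shock, ER and integrated stress members tested in both fits, with the mean and SD for the 13 groups, 1 panel per class. The heat shock panel is highest in the poly I:C groups (8.03 and 8.36), and the ER panel is highest in the group labelled EP2+EP4 (8.33).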

How the data were processed

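Poly(A) RNA of 52 bulk cDC1 libraries (13 groups of 4) was sequenced from the 3' end. Per the labels' protocols, the authors made UMI count tables per gene with the Drop-seq pipeline on a NextSeq 500 run, against GRCm38 with Ensembl 75. The submitters' processing notes name DESeq2 1.14.1 and GRCm38.p6. For the aligner and the use of strand: not given in the sources used here. The deposited values are whole-number counts, not normalised. Of 23136 lines 1 that held text was dropped, and 20 lines with gene names turned into dates held 0.105% of the counts.

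From these counts, edgeR 4.0.16 in R 4.3.3 fitted the 36 libraries at 4 h (5754 genes), the 16 at 24 h (5273 genes) and untreated and PGE2 libraries of both times (16 libraries, 5403 genes) separately, with TMM scaling, filterByExpr by group and a robust quasi-likelihood test. P-values were adjusted over all genes of a fit. The script was tested on simulated data. CPM use TMM factors over all 52 libraries, and class levels a prior count of 2. Depth was 42666 to 438491 counts, and a count of 0 allows up to 3 counts, 10.2 CPM at the median depth, for counting error only. Replicate pairs differed by more than counting noise (chi-square per degree of freedom 1.38 to 2.70 over 78 pairs), which separate libraries of 1 culture could also show, and each library was counted as 1 replicate, as labelled.

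Members and lists were chosen with earlier results of these data known. In each comparison every member that passed is named (for poly I:C all 22), values per library are given for the top member of each class and for Hspa1a, Hspa1b, Hspa5 and Xbp1, and at most 3 other pathway genes are named by smallest p, except that 1 gene is not reported here. Alternatives were DESeq2 1.42.0, RLE scaling, library totals, no filter, a replicate block, only the groups compared, leaving out libraries under 100000 counts, and leaving out each library in turn. The unit pairs of the heat shock element were searched after the full element. Sequences come from the RefSeq promoter table and gene positions from the GENCODE annotation of GRCm38. Protein sequences were not used here.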

Additional observations from a re-analysis of the deposited data

Results flagged for a closer look

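Among 130 sets of 4 libraries (10 members in 13 groups) 12 held a library far from the other 3, and chance gives about 1 in 20. The shallowest library, EP4 antagonist A, had 201 CPM of Hspa1a (the others 25.7 to 35.9) and 60.4 CPM of Hspa1b (11.0 to 14.5). Hspa1a was also apart in library A of PGE2 with poly I:C, at 2612 CPM (2009 to 2079), on which its call rested. Hspa1b was at 5.64 CPM in untreated library B at 24 h and 0 in the other 3. Serp1 was apart in 4 groups: 696 CPM in Ptgs-deficient medium B (1150.2 to 1242), 205 CPM in EP1 antagonist A (336 to 361), 989 CPM in EP3 antagonist B (386 to 457) and 922 CPM in untreated D at 24 h (1074 to 1088). Creld2 was at 468 CPM in untreated A at 4 h (574 to 594), the second shallowest library, and at 681 CPM in EP2 antagonist B (548 to 555). Hspe1 was at 128 CPM in poly I:C C (209.8 to 226), and Asns at 25.4 CPM in EP3 antagonist A (31.5 to 32.4).

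Effects that differed between conditions, each by a test of the difference, were the poly I:C effect with and without PGE2 for Hspa8 (0.74) and Serp1 (0.76), and the PGE2 effect at 24 h against 4 h for Serp1 (1.08) and Hspe1 (0.86), all on the log2 scale.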

How the results depend on the processing

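Of 66 calls of members, 35 held in every alternative run and 31 were lost in at least 1, and 5 turned their sign, all after poly I:C with library totals alone: Creld2 -0.027, Herpud1 -0.28, Hsp90ab1 -0.17, Hspa8 -0.44 and Pdia6 -0.22. The count of members called was within 1.5 times in 90 of 99 other settings and in 116 of 136 that left out 1 library. Without the filter on low counts it was 2 for control medium against untreated (5 in the main test), 1 for Ptgs-deficient medium against untreated (0), 2 for PGE2 at 24 h (5), 3 between the times in untreated cells (6) and 1 for the PGE2 effect between times (2). DESeq2 gave 3 for PGE2 at 24 h (5) and 3 between the times (6). Fitting only the groups compared gave 1 in place of 0 for Ptgs-deficient medium and for the EP2 antagonist, Serp1 in both. Leaving out 1 library gave 2 to 6 for control medium against untreated, 2 to 4 for control against Ptgs-deficient medium, 5 to 10 for the group labelled EP2+EP4, 2 to 5 for PGE2 at 24 h, 3 to 6 for PGE2 with poly I:C against poly I:C and 1 to 3 for the PGE2 effect between times. For the remaining losses the cause was not tested.

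The replicate letters were not used as pairs in the main fit. Same-letter correlations of deviations were -0.09 to 0.10 over 25 pairs of groups, some of them repeated between comparisons. In 0 of these was every correlation over 0.1. In 44 of 100 library comparisons the best correlation was with the own letter, and for the EP2 antagonist against PGE2 in all 4. The correlations were weak, and an absence of pairing is not shown. With the replicate block the counts of members called stayed as they were, except 3 in place of 2 for the interaction, where Hsp90b1 was added (adjusted p = 0.0380). Depth limits Hspa1b, Trib3 and Chac1, which stood near the limit of detection without poly I:C.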
